A study of Homo sapiens with 12 samples.

Results

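The comparison set SW48 cells that received azacytidine and then TSA against SW48 cells that received TSA alone, and it asked what azacytidine given first changed in cells that also received TSA. It took 6 of the 12 arrays of the study, 3 labelled as combined treatment and 3 labelled as TSA, and the 9484 genes that could be tested on the array. SW48, an established human colorectal cancer line, is microsatellite-instable per the labels. The TSA cells were exposed to 0.5 µM Trichostatin A (TSA), a histone deacetylase inhibitor, for 2 days, and the combined cells first had 1 µM 5'-Aza-cytidine (azacytidine), a DNA methyltransferase inhibitor, for 5 days. The other 6 arrays, 3 of untreated control and 3 of azacytidine alone, served to set the change from azacytidine with TSA beside the change without TSA. Treatment lasted longer in the combined cells, so azacytidine and time under treatment cannot be told apart. The labels do not say that replicates were separate cultures, so p-values measure the spread between these samples, which may be technical.

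DNA methylation at the cytosine of CpG dinucleotides in a promoter helps to keep a gene silent, and it has to be copied by DNA methyltransferases after each round of DNA replication. Azacytidine is built into nucleic acids and traps these enzymes, so methylation is lost as cells divide. TSA blocks the enzymes that remove acetyl groups from histones. Genes of the germline that are methylated in most adult tissues, called cancer-testis genes, are known to come on when methylation is lost, and in colorectal cancer the promoters of many other genes carry methylation that normal colon lacks.

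Sequences of the 300 bases around the start of a gene, 250 before and 50 after it, were taken from RefSeq (GRCh38.p14) for 7831 of the 9484 genes. The 4 promoters printed first belong to genes that no TSA array detected and every combined array did. The capitals mark CpG dinucleotides, the sites that DNA methyltransferases act on. TKTL1, a transketolase-like gene, lies at chrX:154295545-154295844 on the plus strand and holds 18 CpG. MAGEA4, a cancer-testis antigen gene, lies at chrX:151912224-151912523 on the plus strand and holds 10. DKK1, which encodes a secreted WNT inhibitor, lies at chr10:52314031-52314330 on the plus strand and holds 20, and MEG3, an imprinted long noncoding RNA, lies at chr14:100825858-100826157 on the plus strand and holds 19.
TKTL1: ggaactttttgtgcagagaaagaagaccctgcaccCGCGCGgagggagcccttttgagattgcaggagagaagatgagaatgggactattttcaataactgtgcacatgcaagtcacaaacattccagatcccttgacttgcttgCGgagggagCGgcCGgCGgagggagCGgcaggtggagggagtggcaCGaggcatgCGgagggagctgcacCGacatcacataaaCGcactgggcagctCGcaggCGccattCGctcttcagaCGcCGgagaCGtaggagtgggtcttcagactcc
MAGEA4: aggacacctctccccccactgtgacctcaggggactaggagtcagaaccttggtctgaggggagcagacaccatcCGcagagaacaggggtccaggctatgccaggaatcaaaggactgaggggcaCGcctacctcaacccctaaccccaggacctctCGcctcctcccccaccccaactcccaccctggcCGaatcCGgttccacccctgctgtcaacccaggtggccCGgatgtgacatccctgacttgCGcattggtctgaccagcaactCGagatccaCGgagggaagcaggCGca
DKK1: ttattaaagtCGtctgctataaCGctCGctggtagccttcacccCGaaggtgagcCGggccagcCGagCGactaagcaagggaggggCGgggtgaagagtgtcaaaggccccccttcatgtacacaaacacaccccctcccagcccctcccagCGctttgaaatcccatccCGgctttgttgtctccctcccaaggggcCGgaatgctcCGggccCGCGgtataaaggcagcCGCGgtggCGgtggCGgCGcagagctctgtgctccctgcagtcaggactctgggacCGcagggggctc
MEG3: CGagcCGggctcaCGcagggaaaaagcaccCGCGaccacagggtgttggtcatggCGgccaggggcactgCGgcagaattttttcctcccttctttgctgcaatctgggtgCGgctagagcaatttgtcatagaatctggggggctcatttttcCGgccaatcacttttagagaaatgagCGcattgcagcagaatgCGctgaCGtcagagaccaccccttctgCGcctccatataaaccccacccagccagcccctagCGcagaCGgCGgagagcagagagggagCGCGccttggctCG

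On the log2 scale of background-corrected, quantile-normalized signal used throughout, TKTL1 stood at 4.78, 4.92 and 4.93 on the 3 TSA arrays and at 12.56, 12.50 and 12.59 on the 3 combined arrays. No TSA array detected it (detection p under 0.01), so its ratio is a bound of at least 66.6-fold (log2 change 7.67 ± 0.07 SE, n = 3 per group, limma adjusted p = 3.10e-16). MEG3 was at 5.04, 5.21 and 5.27 with TSA and at 13.04, 13.07 and 13.09 with the combined treatment, at least 95.4-fold higher. Every combined array lay far above every TSA array for both genes, and the gap was as wide on each chip (7.72 and 7.61 for TKTL1, 7.92 and 7.81 for MEG3, on chips 1 and 2).

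The increases past the threshold were led by cancer-testis genes. GAGE7 was at 5.25, 5.20 and 5.32 with TSA and at 14.78, 14.71 and 14.60 with the combined treatment, at least 295-fold higher (log2 change 9.44 ± 0.12 SE, adjusted p = 2.82e-15). Its chip values were 9.56 and 9.33. GAGE4 was at least 256-fold higher and CT45A3 at least 162-fold, and both were below detection on all TSA arrays. The VCX genes of the X chromosome were different in that TSA cells already gave a signal. VCX was at 7.30, 6.95 and 6.99 with TSA and at 14.31, 14.21 and 14.10 with the combined treatment (7.13 ± 0.12 SE). VCX3B rose by 6.94 ± 0.10 SE and VCX3A by 6.76 ± 0.09 SE. PAGE2 was at least 34.5-fold higher and MAGEA4 at least 31.9-fold, from 4.82, 4.90 and 4.84 to 11.35, 11.65 and 11.47. Members of the GAGE, CT45, VCX, PAGE, MAGEA, histone, metallothionein and alpha-globin families are near-identical, and a probe for a given member may pick up its relatives, which leaves the value of any single member uncertain.

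The decreases were smaller than the increases and fell in genes of other kinds. KRT16, a keratin of stressed epithelium, was at 10.11, 10.16 and 10.24 with TSA and at 5.15, 5.16 and 5.37 with the combined treatment, where no array detected it, at least 14.2-fold lower (log2 change −4.95 ± 0.16 SE, adjusted p = 1.88e-11). DDIT4, which restrains mTOR signalling under stress, was at 13.05, 13.12 and 13.17 with TSA and at 9.31, 9.35 and 9.25 with the combined treatment (−3.81 ± 0.07 SE). ANKRD37, a gene known to respond to hypoxia, fell by 3.57 ± 0.08 SE, and SCD, the desaturase that makes monounsaturated fatty acids, fell by 3.37 ± 0.19 SE. These genes were picked among those without overlap between the groups. The chip values were −4.99 and −4.98 for KRT16, −3.78 and −3.87 for DDIT4, and −3.68 and −3.52 for ANKRD37. The remaining 6 of the 10 largest decreases were EPS8L1 (−3.33 ± 0.17 SE), LEMD1 (−2.94), IGFL2 (−2.83), PTGER2, a prostaglandin E receptor gene (−2.63), IGFBP3, a binding protein of insulin-like growth factors (−2.58), and HSD11B2, which inactivates cortisol (−2.54).

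**Figure D1:**
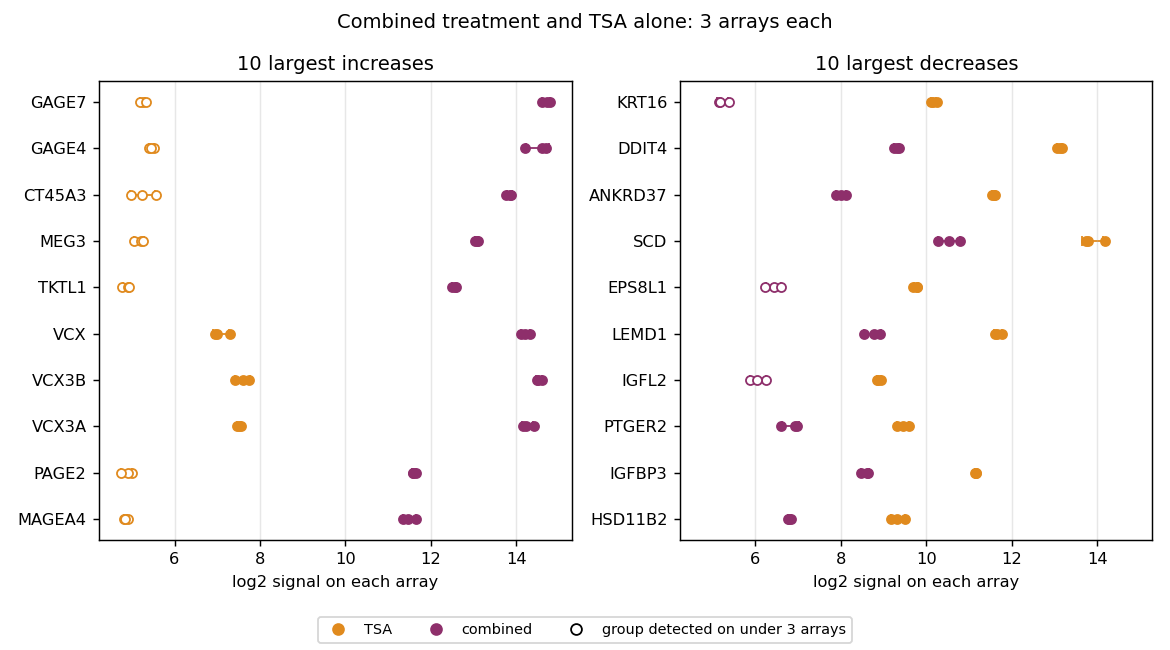
Log2 signal on each of the 3 TSA and 3 combined arrays for the 10 largest increases (left) and the 10 largest decreases (right) without overlap between the groups; points are arrays, error bars are the mean ± SD, and hollow points mark a group in which fewer than 3 arrays detected the gene. GAGE7 moves from about 5.26 to 14.7, while KRT16 moves from detected to not detected.

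In all, 6617 of 9484 genes passed the threshold (limma, Benjamini-Hochberg adjusted p of 0.05), which is 69.8%. Of these 3168 were higher after the combined treatment (33.4% of genes tested) and 3449 lower (36.4%). Changes of 2-fold or more were found in 964 higher genes (10.2%) and 697 lower genes (7.35%). The arrays did not overlap in 35.3% of genes in the higher direction and 38.3% in the lower. The middle of the distribution was narrow and its upper tail long. The quartiles of the log2 change were −0.47, −0.03 and 0.41, 5% of genes lay above 1.82 and 5% below −1.14. The split depends on scaling. With arrays scaled to a common median in place of quantile normalization, the median of all genes moved from −0.03 to −0.43 and the calls became 1327 higher and 4944 lower, so a change smaller than that shift has no direction apart from the normalization.

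The groups separated well beyond the differences between arrays. Across the tested genes the first principal component of the 6 arrays held 94.5% of the variance and separated the treatments, and the second held 2.44% and followed the chip. Correlations across genes, which are not independent replicates, were 0.9943 to 0.9962 within TSA, 0.9933 to 0.9952 within the combined treatment and 0.8732 to 0.8848 between them. Chip 1 held TSA replicates 1 and 2 and combined replicate 1, and chip 2 held the other 3 arrays. Of the 6617 called genes, 6615 had the same direction on both chips, as did all 1661 called genes with a change of 2-fold or more. They were called from these same arrays, which favours such agreement, so these counts are a description. Between 11932 and 13647 of the probes were detected per array. The mean was 12419 ± 433 with TSA and 12903 ± 647 with the combined treatment (SD, n = 3), a difference of 484 (342 on chip 1 and 298 on chip 2). A two-sided exact permutation test gave p = 0.5, and 3 against 3 cannot go below 0.1, so this test cannot decide the difference.

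Epithelial markers were present in both groups. Of 15 colorectal epithelial markers, 9 were detected on all 6 arrays, among them EPCAM (means 12.99 and 12.79), KRT18 (14.19 and 13.71) and the intestinal transcription factor gene CDX2 (9.80 and 10.91). VIL1, LGALS4, CEACAM5, ESRP1 and CLDN4 were detected on no array of either group, and CDX1 on 0 TSA arrays and 1 combined array. Of 10 fibroblast and mesenchyme markers, 5 were detected on no array of either group (COL1A2, COL3A1, DCN, LUM and SPARC). PDGFRA was detected on all 6 arrays, with means of 7.15 and 6.94 (−0.21 ± 0.12 SE, adjusted p = 0.132), and COL1A1 (5.16 and 6.12) and PDGFRB (5.23 and 6.19) on 0 TSA arrays and 1 combined array each. Of 7 blood markers with a probe, PTPRC, CD3E, CD3D, MS4A1 and LYZ were detected on none. Of 5 endothelial markers, PECAM1, CDH5 and KDR were detected on none, and CD34 on 0 TSA arrays and 1 combined array (5.50 and 5.93). Other genes of those marker lists were detected on all combined arrays and no TSA array. VIM, an intermediate filament gene of mesenchymal cells, was at least 18.7-fold higher, VWF, a clotting factor gene of endothelium, at least 10.1-fold, THY1 at least 3.11-fold and CD14 at least 2.71-fold. CD68 rose by 0.47 ± 0.11 SE, a call lost under median scaling (−0.01) and on chip 1 alone (0.46). The summed log2 level of the 10 fibroblast markers lay between 8.82 and 8.87 with TSA and between 11.18 and 11.29 with the combined treatment, that of 7 blood markers between 12.13 and 12.42 and between 12.67 and 12.83, and that of 5 endothelial markers between 7.75 and 7.92 and between 10.01 and 10.23. The sum for 15 epithelial markers lay between 15.32 and 15.61 and between 15.06 and 15.26.

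Detection calls gave a second count that does not depend on the filter used for testing. Of 18665 genes with a probe, 613 were detected on 3 of 3 combined arrays and on 0 of 3 TSA arrays (3.28%), and 199 the other way (1.07%). Of the 613 genes that appeared, 587 were also detected on no control array. On azacytidine arrays 428 of them were detected on all 3 and 92 on none. Of the 199 genes that were lost, 129 were detected on all 3 control arrays, 105 on no azacytidine array and 25 on all 3. Genes below detection have only a bound in the dim group, and their fitted log2 change depends on the background correction. A tested gene that TSA cells do not express had to be detected in another group to pass the filter, so a rise of such a member is no support. For the germline, imprinted, hypermethylated and neuronal lists the count of appearing genes among all with a probe is given with the list. Elsewhere 4 of 25 deacetylase inhibitor genes with a probe appeared, 4 of 27 hypoxia-inducible, 5 of 42 interferon-stimulated, 6 of 44 histone and 2 of 22 WNT genes. In these lists 1 histone gene and 0 others were lost.

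Among 21 MAGE genes with a probe, a family of cancer-testis antigens, 10 appeared in this way and 0 were lost. The 11 tested members had a median log2 change of 4.72, or 3.19 with bounds in place of fitted values. All 11 were undetected with TSA, so this median is a description and no support. MAGEC2 was at least 23.1-fold higher, MAGEA8 at least 17.6-fold and MAGEB2 at least 12.2-fold. MAGEA3 was detected on only 1 combined array and had a fitted change of 1.34 ± 0.14 SE. Among 50 genes with a probe of the GAGE, PAGE, XAGE, SSX, CTAG, CT45 and VCX families, 29 appeared and 0 were lost, and the fitted changes of the 32 tested members ran from 1.19 to 9.44.

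Genes of germ cell RNA processing and meiosis followed, more unevenly. Of 52 with a probe, 18 appeared and 0 were lost, and the median over 27 tested members was 2.27, or 1.04 with bounds. TEX101, a sperm surface protein gene, was at least 14.6-fold higher, MAEL and GTSF1, which act in the piRNA pathway that silences transposons, at least 12.7-fold and at least 5.34-fold, and BRDT, the testis bromodomain gene, at least 4.98-fold. POU5F1, which encodes a pluripotency factor, went against the list and fell by 0.89 ± 0.12 SE.

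Imprinted genes, which are expressed from the copy of a single parent, held genes of both directions. Of 33 with a probe, 6 appeared and 0 were lost. Of 21 tested, 8 of them undetected with TSA, 12 rose and 5 fell, against 33.4% and 36.4% of all genes, with a median of 0.44. Under median scaling 9 rose and 5 fell with a median of 0. DLK1, which lies with MEG3 in an imprinted cluster on chromosome 14, was at 4.82, 4.78 and 4.89 with TSA and at 10.13, 10.11 and 9.99 with the combined treatment, at least 12-fold higher. NNAT was at least 6.39-fold and SNRPN at least 2.02-fold higher. GNAS fell by 1.08 ± 0.09 SE and GRB10, an adaptor that restrains growth factor signalling, fell by 1.03 ± 0.10 SE.

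Of 53 genes with a probe whose promoters are often hypermethylated in colorectal tumours, 8 appeared and 0 were lost, against 3.28% and 1.07% of all genes with a probe. Only 14 were tested, and 8 of these were undetected with TSA and passed the filter through other groups. Among the 14, 13 rose (11 under median scaling), with a median of 2.97, or 1.91 with bounds. DKK1 was at 5.63, 5.18 and 5.49 with TSA and at 11.57, 11.69 and 11.72 with the combined treatment, at least 36.0-fold higher. LGALS1, the gene of the lectin galectin 1, was detected on all TSA arrays (7.70, 7.56 and 7.55) and rose to 13.16, 13.24 and 13.17 (5.59 ± 0.08 SE). UCHL1, a ubiquitin hydrolase gene of neurons, was at least 6.32-fold higher, the transcription factor gene RUNX3 at least 6.24-fold and the DNA repair gene MGMT at least 5.86-fold. CDKN2A, which encodes the p16 inhibitor of the cell cycle, was at 7.60, 7.11 and 7.15 with TSA and at 8.04, 8.04 and 7.59 with the combined treatment (0.60 ± 0.17 SE, adjusted p = 0.00663). For CDKN2A the arrays of the groups overlapped, and the call was lost under median scaling (0.30) and on chip 1 alone (0.69).

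Of 33 neuronal and neuroendocrine genes with a probe, 11 appeared and 0 were lost, against 3.28% and 1.07% of all genes with a probe. These 11 were among the 17 tested and passed the filter through other groups. Of the 17, 14 rose and 2 fell (33.4% and 36.4% of all genes did so), with a median of 2.32, or 0.99 with bounds. For the 11 that appeared a rise is no support. BEX2 was at least 21-fold higher, BEX1 at least 10.8-fold and NEFH, a neurofilament gene, at least 8.30-fold. ENO2, the neuronal enolase, which is also a glycolytic enzyme, fell by 1.10 ± 0.09 SE. Globin genes came on in the same cells. HBA2 was at 5.02, 5.03 and 5.08 with TSA and at 11.08, 10.88 and 10.70 with the combined treatment, at least 21-fold higher, HBA1 at least 12.6-fold and HBQ1 at least 5.11-fold.

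Several lists of metabolism and stress response had more members lower than higher. Of 24 tested genes of the amino acid response, which the transcription factor ATF4 drives when amino acids run short, 21 fell and 2 rose, against 36.4% and 33.4% of all genes, with a median of −1.30 against −0.03 for all genes (−1.65 against −0.43 under median scaling). TRIB3, a pseudokinase gene, was at 12.67, 12.67 and 12.59 with TSA and at 10.28, 10.26 and 10.25 with the combined treatment (−2.38 ± 0.08 SE). DDIT3, which encodes the stress factor CHOP, fell by 2.09 ± 0.08 SE, PHGDH, the entry enzyme of serine synthesis, fell by 1.83 ± 0.08 SE and ASNS, the asparagine synthetase gene, fell by 1.43 ± 0.10 SE. ATF4 itself was at 14.89, 14.99 and 14.80 and at 14.88, 14.89 and 14.93, with a log2 change of 0.00 ± 0.07 SE (adjusted p = 0.956). With the mean of its probes, or under median scaling, ATF4 had a change of −0.38 or −0.42 and passed. The 2 members that rose were ATF3 (1.45 ± 0.09 SE) and STC2, which was below detection with TSA (at least 1.23-fold).

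Hypoxia-inducible genes fell in 15 of 22 tested members and rose in 6, with a median of −0.82 (−1.31 under median scaling, where 16 fell and 5 rose). Among all genes 36.4% fell and 33.4% rose. NDRG1 fell by 2.33 ± 0.09 SE and VEGFA, which encodes an angiogenic growth factor, fell by 1.75 ± 0.13 SE, as did DDIT4 and ANKRD37 above. SLC2A3, a glucose transporter gene, went the other way, from 7.31, 7.30 and 7.19 to 11.12, 11.09 and 11.09 (3.83 ± 0.10 SE), and BNIP3, a mitochondrial autophagy gene, was at least 2.34-fold higher. Glycolytic enzymes fell in 15 of 17 and rose in 0, with a median of −0.83 (−1.32 under median scaling, where 17 fell). ALDOC was at 13.27, 13.14 and 13.02 with TSA and at 10.87, 10.74 and 10.77 with the combined treatment (−2.35 ± 0.08 SE). LDHA, which makes lactate, fell by 1.77 ± 0.10 SE, PGAM1 fell by 1.44 and PGK1 fell by 1.31.

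Promoters of 3 of these genes are printed with the letters that the known factors bind in capitals. For ANKRD37 (chr4:185396591-185396890, plus strand) and DDIT4 (chr10:72273674-72273973, plus strand) the capitals mark ACGTG or GCGTG on either strand, the core bound by the hypoxia-inducible factors; where both strands match, the capitals join. For ASNS (chr7:97872359-97872658, minus strand) they mark TGATGNAA, the amino acid response element bound by ATF4.
ANKRD37: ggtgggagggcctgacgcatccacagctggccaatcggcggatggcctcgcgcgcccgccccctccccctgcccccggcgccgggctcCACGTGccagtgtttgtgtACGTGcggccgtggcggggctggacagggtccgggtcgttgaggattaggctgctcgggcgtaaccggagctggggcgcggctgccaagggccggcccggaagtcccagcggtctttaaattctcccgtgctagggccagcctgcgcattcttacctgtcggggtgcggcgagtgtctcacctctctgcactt
DDIT4: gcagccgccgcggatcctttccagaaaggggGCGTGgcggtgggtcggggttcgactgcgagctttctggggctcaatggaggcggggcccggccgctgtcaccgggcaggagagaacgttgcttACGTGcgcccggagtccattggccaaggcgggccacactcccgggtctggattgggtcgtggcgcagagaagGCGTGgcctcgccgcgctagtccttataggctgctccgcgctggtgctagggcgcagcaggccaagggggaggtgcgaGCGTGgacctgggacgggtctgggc
ASNS: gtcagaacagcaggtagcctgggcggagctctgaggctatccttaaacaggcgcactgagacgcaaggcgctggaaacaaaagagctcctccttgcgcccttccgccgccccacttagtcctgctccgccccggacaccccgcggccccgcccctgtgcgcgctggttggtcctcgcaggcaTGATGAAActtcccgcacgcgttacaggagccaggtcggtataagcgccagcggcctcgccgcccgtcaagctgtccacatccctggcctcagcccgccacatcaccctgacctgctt

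The hypoxia core is common, and 64.2% of the 7831 tested promoters held it on either strand. It was in 16 of 18 hypoxia-inducible genes with a promoter sequence, 10 of 12 that fell and 5 of 5 that rose, and in 12 of 17 glycolytic enzymes. The amino acid response element was in 5 of 22 promoters of the ATF4 list, 4 of 19 that fell and 1 of 2 that rose, against 1.6% of tested promoters. A sterol response motif, TCACNCCAC, was in 1 of 17 promoters of cholesterol synthesis genes, against 1.0%. A match says only that the letters are there.

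Lists of lipid synthesis held genes of both directions. Of 19 cholesterol synthesis genes 11 fell, 3 rose and 5 did not pass, against 36.4% lower and 33.4% higher among all genes, and their median was −0.64 (−1.04 under median scaling, where 13 fell and 0 rose). INSIG1, a feedback regulator of sterol synthesis, was at 10.67, 10.70 and 10.91 with TSA and at 8.47, 8.38 and 8.23 with the combined treatment (−2.40 ± 0.12 SE), and the pathway enzymes DHCR7, ACAT2 and IDI1 fell by 1.70, by 1.40 and by 1.20. Of 13 fatty acid synthesis genes 8 fell, 3 rose and 2 did not pass, with a median of −0.30 (−0.74 under median scaling, where 10 fell and 1 rose). The largest decreases were in SCD, SREBF1, a master regulator of lipogenesis (−1.70 ± 0.08 SE), and ACSS2 (−1.31 ± 0.09 SE). The fatty acid elongase ELOVL5 was at least 1.57-fold higher.

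Proliferation genes were lower, by small amounts. Among all genes 36.4% fell and 33.4% rose. Mitosis genes fell in 35 of 46 and rose in 2, with a median of −0.48. Genes of DNA replication and nucleotide synthesis fell in 28 of 39 and rose in 3, with a median of −0.46. Under median scaling these medians were −0.89 and −0.91, and 0 members rose. KIF11, a spindle motor gene, was at 8.19, 8.42 and 8.35 with TSA and at 6.89, 7.02 and 6.92 with the combined treatment (−1.38 ± 0.09 SE), AURKB, a mitotic kinase gene, fell by 1.32 ± 0.08 SE and BUB1B, a spindle checkpoint gene, fell by 1.17 ± 0.13 SE. RRM2, a ribonucleotide reductase subunit gene, was below detection on all combined arrays and at least 1.91-fold lower. MCM10, RFC5 and CDT1, of the replication machinery, fell by 1.26, by 1.25 and by 1.21. MYC, a growth-promoting transcription factor gene, fell by 1.01 ± 0.08 SE, from 12.62, 12.62 and 12.77 to 11.63, 11.61 and 11.72.

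Of 27 tested targets of the p53 tumour suppressor, 17 rose and 5 fell, against 33.4% and 36.4% of all genes, and their median was 0.46. Under median scaling 6 rose and 8 fell, with a median of 0. TP53INP1 rose by 1.92 ± 0.08 SE, AEN by 1.56 ± 0.08 SE, TIGAR by 1.41 ± 0.11 SE and TP53I3 by 1.31 ± 0.08 SE, and MDM2, which restrains p53, was at least 1.95-fold higher. CDKN1A, the gene of the cell cycle inhibitor p21, rose by 0.73 ± 0.07 SE from an already high level (12.68, 12.61 and 12.59 to 13.44, 13.41 and 13.23), a call lost under median scaling (0.28). BAX, a proapoptotic gene, had a change of −0.09 ± 0.10 SE (−0.53 and past the threshold under median scaling). Among apoptosis regulators 8 of 20 rose and 6 fell, near those shares of all genes, with a median of 0 (−0.38 under median scaling). The proapoptotic gene BIK rose by 1.77 ± 0.11 SE and the antiapoptotic gene BCL2 fell by 1.61 ± 0.14 SE.

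Of 25 interferon-stimulated genes 11 rose and 8 fell, near the shares of all genes called (33.4% higher and 36.4% lower), and their median was 0.04 (−0.30 under median scaling, where 11 rose and 11 fell). HERC5 was at least 7-fold higher, IFI27 at least 5.49-fold and BST2 at least 5.15-fold, and ISG15, an ubiquitin-like modifier, rose by 2.90 ± 0.12 SE, while LGALS3BP fell by 1.43 ± 0.16 SE and IFITM3, an antiviral membrane protein gene, fell by 1.22 ± 0.09 SE. Genes of MHC class I presentation, which displays peptides to T cells, fell in 7 of 15 and rose in 4, also near those shares, with a median of −0.20. Under median scaling 9 fell and 0 rose, with a median of −0.70. TAPBP fell by 1.34 ± 0.09 SE, TAP2 fell by 1.01 ± 0.12 SE and HLA-C fell by 0.81 ± 0.11 SE, and the immunoproteasome gene PSMB10 rose by 0.69 ± 0.09 SE, a call lost under median scaling (0.19). Of 10 genes with a probe in the list of the MHC class II pathway only 2 were tested. Both rose, HLA-DMB by 3.11 ± 0.09 SE and HLA-DMA by 0.67 ± 0.14 SE, and the latter call was lost under median scaling (0.29). HLA-DOB, a class II gene outside the list, was detected on all TSA and no combined arrays and was at least 1.34-fold lower.

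Among the tested genes of DNA methyltransferases and histone deacetylases, 1 changed by 2-fold or more, HDAC8. DNMT1, the maintenance methyltransferase gene, was at 13.26, 13.30 and 13.38 with TSA and at 13.01, 13.07 and 13.10 with the combined treatment (−0.26 ± 0.09 SE, adjusted p = 0.0244), and the call was lost without TSA replicate 3 (−0.23), without combined replicate 1 (−0.23) and on chip 1 alone (−0.28). DNMT3B, a de novo methyltransferase gene, rose by 0.68 ± 0.09 SE, a call lost under median scaling (0.23). UHRF1, which brings DNMT1 to replicated DNA, had a change of −0.24 ± 0.10 SE (adjusted p = 0.045), and leaving out any of the arrays but TSA replicate 1 ended that call, with changes from −0.16 to −0.27. MBD2, a reader of methylated DNA, was below detection after the combined treatment and at least 1.67-fold lower. DNMT3A was detected on no array of any group and was not tested. HDAC1, HDAC2 and HDAC3, the class I deacetylase genes, had changes of −0.08 ± 0.07, −0.10 ± 0.07 and −0.19 ± 0.09 SE (adjusted p = 0.348, 0.245 and 0.0604). Under median scaling their changes were −0.56, −0.58 and −0.70 and passed, beside a shift of all genes to −0.43. HDAC3 also passed at −0.18 without background correction and on the authors' values. At −0.19 it passed with only the 6 arrays compared and with trended moderation, and at −0.2 with array weights. Under quantile normalization 33.4% of all genes rose and 36.4% fell. In the list of 12 deacetylases 1 rose, HDAC11 (0.75 ± 0.13 SE), and 3 fell, including HDAC8 (−1.01 ± 0.13 SE); under median scaling 1 rose and 7 fell. Of 22 genes of histone methylation and Polycomb silencing 10 fell and 3 rose (14 and 1 under median scaling), with EHMT2, a histone H3 lysine methyltransferase gene, at −1.22 ± 0.17 SE and DOT1L at least 2.20-fold higher. Of 25 histone genes 14 rose and 7 fell (12 and 10 under median scaling), with the linker histone genes H1-2 and H1-10 in opposite directions, 2.23 ± 0.11 SE and −1.71 ± 0.11 SE.

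Of 19 WNT target and stem cell genes 8 rose and 8 fell, close to the 33.4% and 36.4% of all genes. Their median was 0.16 (−0.33 under median scaling, where 5 rose and 8 fell, and −0.09 when probes of a gene were averaged). LEF1, a WNT transcription factor gene, was at least 1.59-fold higher and the WNT inhibitor APCDD1 at least 1.40-fold, while NOTUM, a secreted WNT inhibitor gene, fell by 2.13 ± 0.16 SE and ID3 fell by 1.68 ± 0.08 SE. CDX2 rose by 1.11 ± 0.10 SE, the mucin gene MUC13 was at least 1.18-fold higher and CDH17, the intestinal cadherin gene, fell by 0.98 ± 0.10 SE. Of 8 keratins 6 fell, KRT16 most, and KRT10 rose by 1.27 ± 0.08 SE. Mismatch repair genes fell in 4 of 5, with EXO1 at −0.74 ± 0.08 SE and PMS1 at −0.87 ± 0.10 SE. The 1 that rose, MSH3 (0.31 ± 0.07 SE), had probes that disagreed, and its change was 0.01 under median scaling and −0.03 with the mean of its probes.

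Housekeeping groups stayed near the median of all genes. Of 32 ribosome biogenesis genes 10 rose and 11 fell around a median of 0.02, and of 34 subunits of oxidative phosphorylation 11 rose and 11 fell around a median of 0.01. Under median scaling these medians were −0.47 and −0.46, beside −0.43 for all genes, with 0 higher and 19 lower in the first list and 1 and 21 in the second. DDX21, a nucleolar helicase gene, fell by 1.31 ± 0.16 SE and FBL, the fibrillarin gene, fell by 0.71 ± 0.07 SE, while NDUFB3 of complex I rose by 0.98 ± 0.08 SE and CYC1 of complex III fell by 0.92 ± 0.07 SE. Of 16 endoplasmic reticulum chaperone genes 7 rose and 7 fell around a median of 0.03, and 33.4% and 36.4% of all genes did so. Under median scaling 3 rose and 8 fell, with a median of −0.45. DNAJC3 was at least 2.26-fold higher, SDF2L1 rose by 1.12 ± 0.08 SE and CRELD2 rose by 1.01 ± 0.07 SE, EDEM1 was at least 1.75-fold lower, and HSPA5, the main chaperone, fell by 0.37 ± 0.08 SE, a call lost on chip 1 alone (−0.24).

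**Figure D2:**
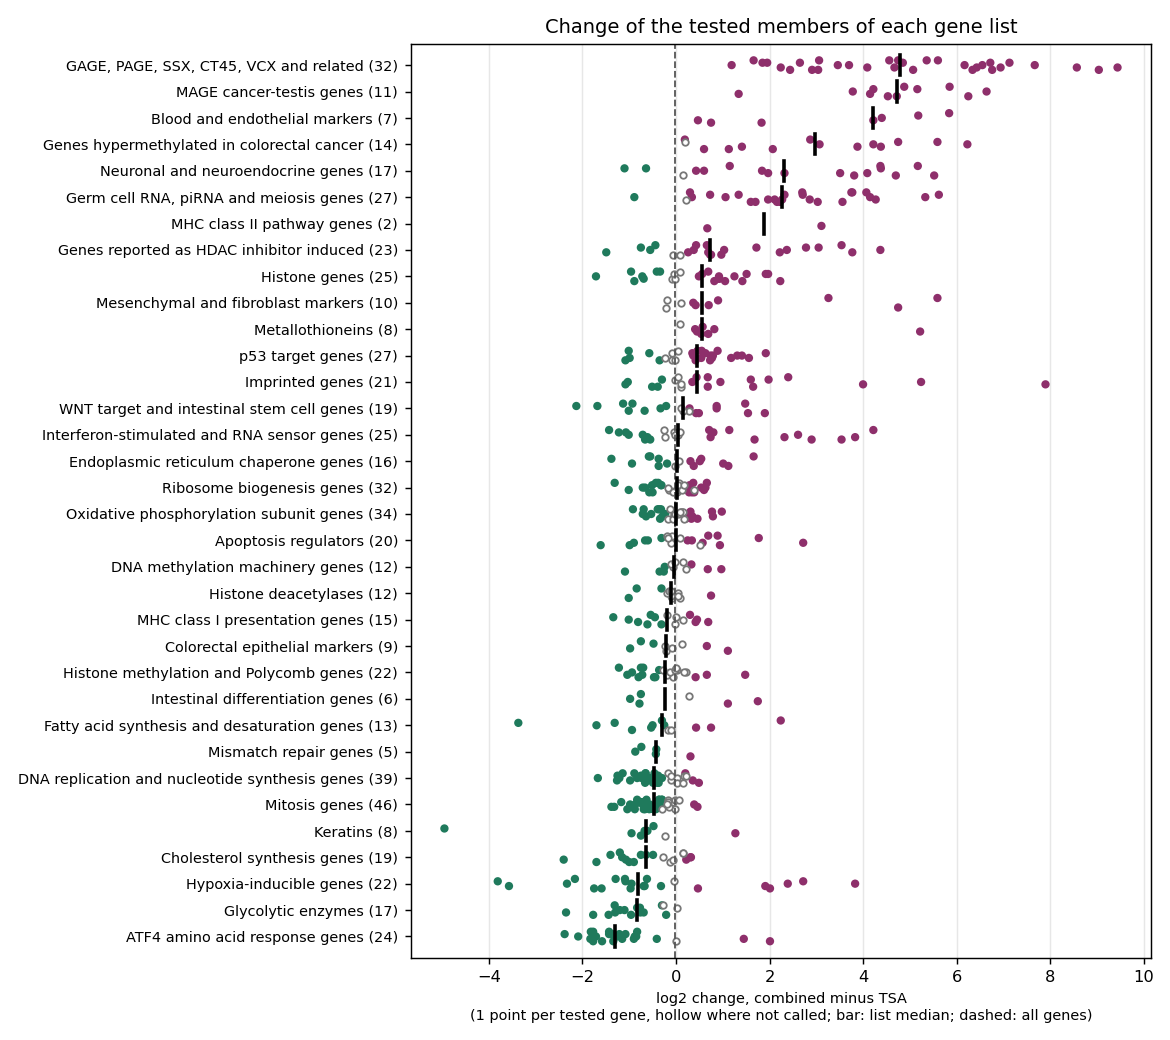
Log2 change, combined minus TSA, of each tested member of the gene lists, with 1 point per gene, filled in purple (higher) or green (lower) where it passed the threshold and hollow where it did not; black bars are list medians, the dashed line is the median of all genes, and numbers in brackets are tested members. Cancer-testis lists sit at medians of 4.80 and 4.72, and amino acid response, glycolytic and hypoxia-inducible genes sit lowest, at −1.30, −0.83 and −0.82.

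The change from azacytidine in cells with TSA was then set beside the change from azacytidine in cells without it, measured on the other 6 arrays, so that the contrasts shared no array. Without TSA 63.5% of genes passed the threshold, against 69.8% with it. Most genes moved alike. Of 3168 genes higher with TSA, 75.5% were also higher without it, and of 3449 lower genes 69.3% were also lower. Seen from the other side, 78.0% of the genes that were higher without TSA and 80.9% of those that were lower kept the call with TSA. The changes had a Pearson correlation of 0.889 and a Spearman correlation of 0.831 across 9484 genes, which are not independent replicates. GAGE7 changed by 9.44 with TSA and 9.39 without, and KRT16 by −4.95 and −4.66.

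The difference between these changes, the interaction of the 4 groups, passed the threshold for 2150 genes (22.7%), 1097 with a higher change in the presence of TSA (11.6%) and 1053 with a lower one (11.1%). Under median scaling the counts were 321 and 641 and the median of all interactions moved from −0.04 to −0.28, and with cyclic loess they were 1241 and 664. Among the 1661 genes that changed by 2-fold or more with TSA, 720 had an interaction past the threshold. For 449 of the higher genes the increase was larger with TSA than without, and for 42 it was smaller. For 201 of the lower genes the decrease was deeper with TSA, and for 28 it was shallower. These genes were picked by their change with TSA, which favours larger values there. In 169 genes both changes passed and had opposite signs.

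The genes with large positive interactions differed in how far azacytidine moved them without TSA. PMEL, a melanosome protein gene, was at 5.77, 5.79 and 5.72 with TSA and at 9.20, 9.03 and 8.92 with the combined treatment, at least 5.89-fold higher. No control, azacytidine or TSA array detected it, so the fitted interaction of 4.02 (adjusted p = 7.65e-10) and its rank rest on values not above background. LGALS1 rose by 5.59 with TSA and by 2.03 without (interaction 3.56). VGF, a neuropeptide precursor gene detected in every group, rose from 8.91, 8.89 and 8.93 to 13.03, 13.02 and 12.96, a change of 4.09 against 0.82 without TSA (3.27). HBA2 (3.22) and the vesicle protein gene SYT11 (3.11) rose by 2.62 and by 1.26 without TSA in the fit, with 0 control and 0 TSA arrays detecting either. MBD3L5 (3.03), like PMEL, was detected in no group but the combined one. These 6 genes had interactions of the same sign on both chips, and past the threshold under median scaling and cyclic loess. They were picked by their interaction on the same arrays, which favours such agreement. On the authors' values, whose transform is not stated, those of PMEL and MBD3L5 were 1.72 and 1.13.

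The most negative interactions took different forms. The p53 target SPATA18 rose by 1.71 with azacytidine alone and had a change of −0.01 ± 0.10 SE with TSA present (interaction −1.72). TGFBI, a matrix protein gene, was at least 3.35-fold higher with the combined treatment than with TSA (fitted 2.58), and its change without TSA was 4.20 (−1.61). PTGER2, SLC39A1, a zinc transporter gene, and ACYP2 fell further in the presence of TSA, with interactions of −1.50, −1.50 and −1.43. On the authors' values these were −0.79, −1.23 and −0.42. No combined array detected ACYP2, which was at least 2.44-fold lower than with TSA, so its interaction rests in part on signals not above background. ZKSCAN1 had a change of −0.10 ± 0.17 SE with TSA and 1.30 without (−1.40). With cyclic loess the change of SPATA18 with TSA was 0.27 and passed.

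**Figure D3:**
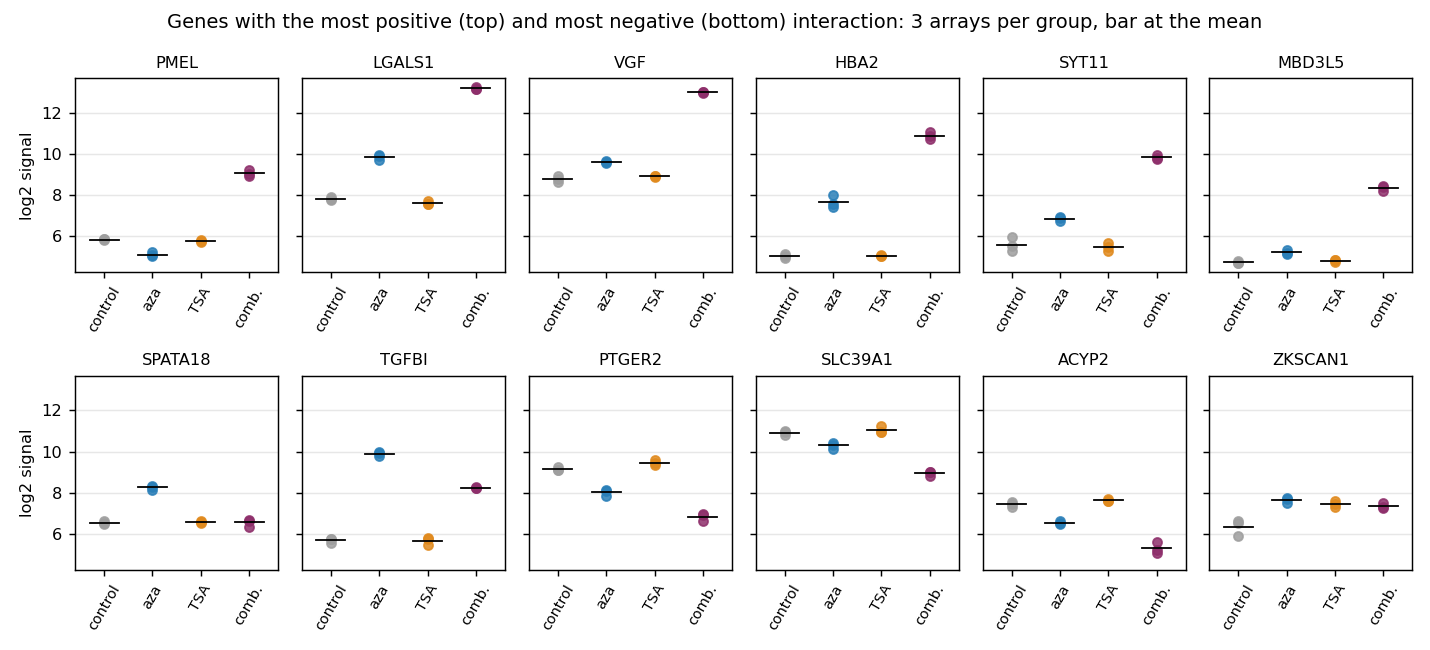
Log2 signal on the 3 arrays of each of the 4 groups (control, azacytidine, TSA, combined) for the 6 genes with the highest and the 6 with the lowest interaction; points are arrays and bars are means. PMEL and MBD3L5 lie low in 3 groups and rise in the combined treatment alone, while SPATA18 is raised in the azacytidine group alone.

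Lists differed in how far TSA shifted the azacytidine change. Of 23 tested genes that deacetylase inhibitors are known to induce, 17 rose and 4 fell in the combined cells against TSA. Among all genes 33.4% rose and 36.4% fell. The list had a median of 0.73, against 0.19 for azacytidine without TSA. Under median scaling 11 rose and 5 fell, with a median of 0.28. Their interaction was higher in 16 and lower in 1, against 11.6% and 11.1% of all genes; under median scaling it was higher in 6 and lower in 1, and with cyclic loess higher in 17 and lower in 1. SYT11 was at least 10.1-fold higher, CPA4, a carboxypeptidase gene, at least 7.07-fold and ALPG, an alkaline phosphatase gene, at least 3.87-fold, CCN2, a matrix signalling gene, rose by 3.54 ± 0.11 SE, and TXNIP, an inhibitor of glucose uptake, fell by 1.49 ± 0.08 SE.

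Metallothioneins, which bind zinc and copper, had median changes of opposite sign with and without TSA. Of 8 tested genes of the list, 7 rose and 0 fell with TSA present, against 33.4% and 36.4% of all genes. Their median was 0.55 with TSA and −0.45 without. Under median scaling 1 rose, with a median of 0.14. The interaction was higher in 6 of 8, against 11.6% of all genes, and this count of 6 was the same under median scaling and cyclic loess. MT2A was at 12.60, 12.49 and 12.57 with TSA and at 13.38, 13.31 and 13.04 with the combined treatment, a change of 0.69 ± 0.09 SE against −0.69 without TSA, and the call of 0.69 was lost under median scaling (0.23). MT1G changed by 0.82 against −0.32, with a value of 0.30 under median scaling that did not pass. MT1X had a change of 0.08 ± 0.09 SE with TSA and −1.08 without. MT3 was below detection with TSA and at least 11-fold higher in the combined cells.

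The p53 targets went the other way. None of 27 had a higher interaction and 12 had a lower one (13 under median scaling and 12 with cyclic loess). Among all genes 11.6% had a higher and 11.1% a lower interaction. The median change of the p53 targets was 0.46 with TSA and 0.72 without. TP53I3 changed by 1.31 against 2.22, CDKN1A by 0.73 against 1.19 and BAX by −0.09 against 0.78. Mitosis genes had 16 of 46 and replication genes 13 of 39 with a lower interaction and 0 with a higher one, and under median scaling 8 and 5. MAD2L1, a spindle checkpoint gene, fell by 1.04 ± 0.15 SE with TSA against a change of −0.27 without. In the MAGE list 1 of 11 interactions was higher and 0 were lower, and their median change was 4.72 with TSA and 4.73 without.

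**Figure D4:**
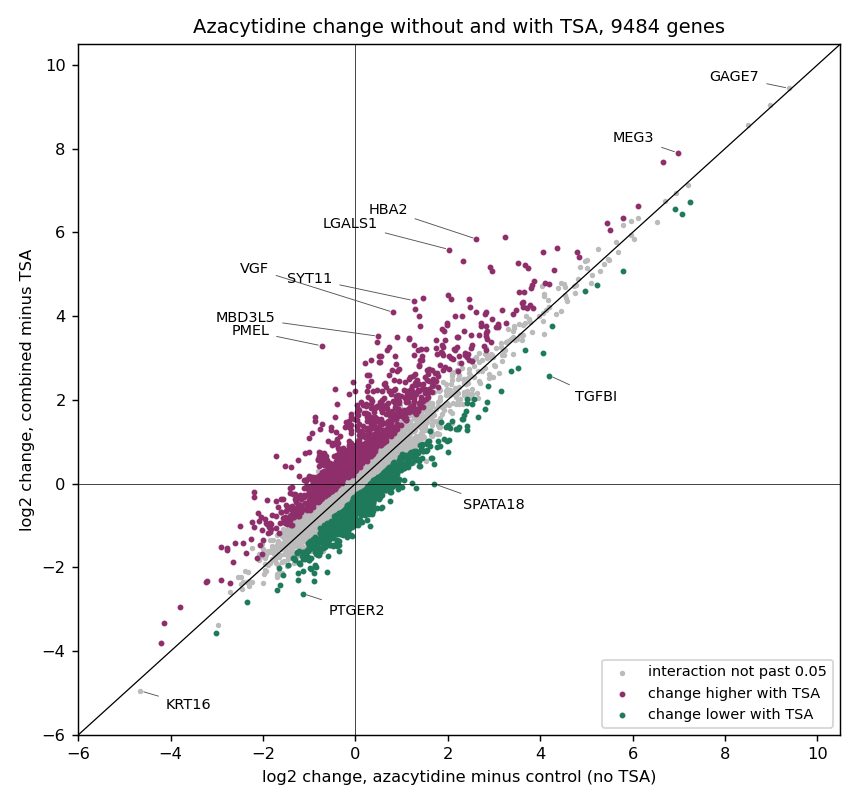
Log2 change from azacytidine without TSA (azacytidine minus control, x axis) and with TSA (combined minus TSA, y axis) for each of 9484 genes; the diagonal marks equal changes, and colours mark genes whose interaction passed the threshold, purple for a higher and green for a lower change with TSA. GAGE7, MEG3 and KRT16 lie near the diagonal, PMEL, VGF and LGALS1 far above it and TGFBI and SPATA18 below it.

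Promoter sequence and chromosome were not used to choose any gene, and the shares by promoter class and chromosome are descriptions, without a test. The median CpG count of the 300-base promoters was 26 over the 7831 tested genes with a sequence, 27 over genes that were not called, 22 over genes higher by 2-fold or more and 26 over genes lower by 2-fold or more. It was 20 for the genes that appeared by detection and 12.5 for 54 members of the cancer-testis and germ cell lists. Promoters with under 10 CpG made up 10.3% of all tested genes, 21.9% of those higher by 2-fold or more and 15.5% of those lower by as much. By class, 17.3% of genes with 0 to 4 CpG and 22.6% of those with 5 to 9 were higher by 2-fold or more, against 12.1% with 10 to 19, 7.5% with 20 to 29 and 7.3% with 30 or more. Genes undetected with TSA were also unequal among these classes, at 16.4%, 20.5%, 9.3%, 6.5% and 5.2%, and their part in the pattern was not tested. No methylation was measured here.

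**Figure D5:**
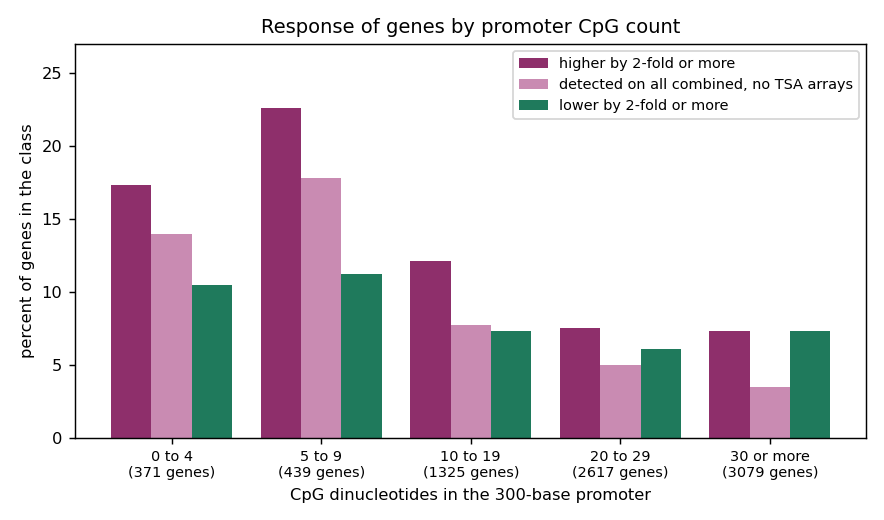
Percent of genes in each class of promoter CpG count that were higher by 2-fold or more, were detected on all combined and no TSA arrays, or were lower by 2-fold or more; bars start at 0, and the number of genes is given under each class. The share of higher genes is 22.6% at 5 to 9 CpG and 7.3% at 30 or more, and the share of lower genes runs from 6.1% to 11.2%.

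On the X chromosome 88 of 336 tested genes (26.2%) were higher by 2-fold or more, against 9.56% on all other chromosomes. Cancer-testis families are concentrated on X. Without the members of the cancer-testis and germ cell lists, 48 of 296 X genes (16.2%) were higher by 2-fold or more. Only listed members were taken out, so other germline genes on X may remain in that share. The next chromosome was 19, with 95 of 664 genes (14.3%). Tested genes detected on all combined and no TSA arrays numbered 69 on X and 58 on chromosome 19. They passed the filter through other groups, and their part in these shares was not tested. The share of lower genes on X was 8.04%, near the 7.35% of all genes.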

How the data were processed

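RNA of SW48 cells was measured on Illumina HumanWG-6 v3 arrays. The deposited table holds 1 intensity per probe and array, summarised with GenomeStudio per the submitters' processing notes, on a linear scale without background subtraction or normalization between arrays, as the values show. Detection p-values stand beside the intensities, per the file headers. The authors also deposited processed values, whose equal array distributions are those of quantile-normalized log2 signal. The notes name lumi 2.6.0, but no source here states the transform. Those values served as an alternative. No build is given for the probes, and printed coordinates are those of the RefSeq promoter table.

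Intensities were background-corrected with limma 3.58.1 (R 4.3.3) from the detection p-values with an offset of 16, quantile-normalized and taken to log2. Of 48801 probes, 13915 were kept because 3 or more of the 12 arrays gave a detection p under 0.01, and 11694 of these had 1 gene. For each of 9484 genes the brightest probe on average was used. Several probes were kept for 1937 genes, and for 103 of these they were called in opposite directions. The number of arrays limits the precision. Raw array medians lay between 117 and 135.5, near background for most probes.

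One linear model of 4 group means over 12 arrays (8 residual degrees of freedom) gave the combined minus TSA change, the azacytidine minus control change and their difference, the interaction, with moderated two-sided tests and Benjamini-Hochberg adjustment at 0.05 over all genes. Standard errors (SE) are those of the fit. For a gene that no array of a group detected, "at least N-fold" divides the bright group's mean by a floor, which on each array is the lowest signal of any detected probe or, if higher, that of the probe itself. The members and gene lists were chosen with earlier results of these data known. Named genes are the 10 largest changes each way without overlap, up to 4 called members per list, 6 interactions each way, and preset genes, and not all of them are printed. ASNS, ATF3, ATF4, BAX, ENO2, GNAS, GRB10, HSPA5, IFITM3, LGALS3BP, MAGEA3, MDM2, MGMT, MSH3, MT1X, NDRG1, POU5F1, RUNX3, TXNIP, VEGFA and the cell type markers fall outside that rule and, the markers apart, were named after their values were seen. HLA-DOB, which its list lacked, was also named after its value was seen. List symbols that synonym lookup had dropped (GAGE4, GAGE7) were restored after results had been seen. Replicate numbers were not used as pairs. The deviations of same-numbered TSA and combined arrays correlated at 0.377, −0.161 and 0.252 for replicates 1, 2 and 3. Replicates 1 and 3 shared a chip and replicate 2 did not, so pairing and chip cannot be told apart. The fit was tested on simulated data.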

Additional observations from a re-analysis of the deposited data

Results flagged for a closer look

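The change from azacytidine differed with and without TSA, by the test of the interaction in limma, for 2150 of 9484 genes (22.7%). Of the genes named in the text, HLA-DOB apart, 82 passed that test. The difference was 2-fold or more in 35 of them and smaller in 47. The log2 interaction is given for the 35. Among the 27 with a higher change in the presence of TSA, the genes named for their interaction were PMEL (4.02), LGALS1 (3.56), VGF (3.27), HBA2 (3.22), SYT11 (3.11) and MBD3L5 (3.03). PMEL, MBD3L5 and, below, H2AC8 were detected only on combined arrays, so their values rest on signals not above background. Others rest on such signals in part. ALPG was detected on 1 azacytidine array and on no control or TSA array. TKTL1, TEX101, NNAT, BST2, MT3, SYT11, CPA4, THY1, HBA2, HBA1, VWF and TGFBI were detected on no control or TSA array, DOT1L on no TSA array, and ACYP2 and EDEM1 on no combined array. Genes of neurons, imprinting, the germline, blood, endothelium and mesenchyme were NNAT (2.62), TEX101 (1.26), TKTL1 (1.03), HBA1 (2.26), VWF (1.95) and THY1 (1.06). Genes reported to respond to histone deacetylase inhibitors, and metallothioneins, were ALPG (2.54), CPA4 (2.37), MT3 (1.53), MT2A (1.39), MT1X (1.16) and MT1G (1.14). Immune genes were HLA-DMB (1.24), HLA-DMA (1.13) and BST2 (1.03). The others were SLC2A3 (1.85), ASNS (1.17), H1-2 (1.18), H2AC8 (1.15), DOT1L (1.14) and KRT19 (1.05). The 8 with a lower change were SPATA18 (−1.72), TGFBI (−1.61), PTGER2 (−1.50), SLC39A1 (−1.50), ACYP2 (−1.43), ZKSCAN1 (−1.40), IFITM3 (−1.12) and EDEM1 (−1.03). All 35 had the same sign on both chips, 34 passed under median scaling (KRT19 had 0.78 there and did not) and 35 passed with cyclic loess. The 35 were picked by their interaction on the same arrays, which favours such agreement. On the authors' processed values the interaction of KRT19 was 0.99, that of EDEM1 −0.30 and that of H2AC8 0.34.

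Among 21211 probes that the annotation used here does not name, 177 were detected on all 3 combined arrays and on no TSA array, and 75 the other way. These probes entered no comparison.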

How the results depend on the processing

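Between 5100 and 7811 genes passed under the alternatives for combined minus TSA, and of the 6617 reported calls at least 4763 were called in the same direction under each. Median scaling moved the calls to 1327 higher and 4944 lower (21.2% higher against 47.9%), with 739 higher and 1693 lower by 2-fold or more, and the interaction to 962 genes, 321 higher and 641 lower. With cyclic loess 664 interactions were lower. Counts of genes higher and lower by 2-fold or more were 561 and 246 without background correction, 384 and 174 on the authors' processed values, and with an offset of 50 the lower count was 460. On single chips, with 1 or 2 arrays per group, the interaction passed for 520 genes (379 higher, 141 lower) on chip 1 and 558 (419 and 139) on chip 2. Leaving out single arrays gave 6141 to 6234 genes (2950 to 2991 higher, 3170 to 3260 lower; 955 to 976 and 693 to 742 by 2-fold or more) and 1700 to 2272 interactions (919 to 1109 higher, 781 to 1163 lower). At a detection p of 0.05, 666 genes appeared, 239 were lost and the difference in detected probes was 129.

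In the reported fit replicate numbers were not used as pairs. The replicate block gave 6898 genes and 2591 interactions, with 964 and 697 genes changed by 2-fold or more, and chip as a block gave 7005 genes and 2974 interactions.

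Of 3541 values of 161 named genes under 22 alternatives, 3497 kept the call, and also the direction where the gene was called. A further 24 lost the call, 15 gained it and 5 changed sign with a call in the reported or the alternative fit. Sign changes of genes called in neither fit were not counted. ATF4 became −0.42 under median scaling and −0.38 with the mean of its probes, CD68 −0.01 under median scaling, SPATA18 0.27 with cyclic loess and MSH3 −0.03 with the mean of its probes. The median of the WNT list turned to −0.33 under median scaling and −0.09 with the mean of probes. The cause of these shifts was not tested. Genes near background have only bounds, and their fitted changes varied with the processing. The median of the MAGE list, 4.72 as reported, was 3.01 without background correction, 3.79 with an offset of 50 and 2.31 on the authors' values.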
